A study of Homo sapiens with 6 samples.

Results

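Replication-dependent histone genes were examined in A2058 cells, a human line from a metastatic melanoma, with and without vitamin C. They were taken as the protein coding genes whose GENCODE 29 symbol starts with HIST1H, HIST2H, HIST3H or HIST4H, which gave 71 of the 60675 gene identifiers in the count table. Of these, 6 encode the linker histone H1 and 17, 18, 15 and 15 encode the core histones H2A, H2B, H3 and H4. The treated group was 3 wells given vitamin C at 100 µM for 48 h according to the sample labels, although a protocol note in the same labels has sodium ascorbate at 50 µM. The control group was 3 wells of the same line without added vitamin C. Ribosomal RNA was depleted from the RNA of each well before sequencing, so RNA without a poly(A) tail was kept. The wells of each group came from 1 cell line, so p-values measure the spread between wells and not between lines or people.

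Histones package DNA into nucleosomes. Core histones H2A, H2B, H3 and H4 form the particle around which DNA is wrapped, and H1 binds the linker DNA between particles. The replication-dependent genes lie in clusters as many near-identical intronless copies, and are transcribed mainly in S phase, when new chromatin is assembled. Their mRNAs as a rule do not carry a poly(A) tail. They end in a short stem-loop in the RNA that is bound by the stem-loop binding protein SLBP, and the RNA is cut just after it by the U7 snRNP.

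Of the 71 genes, 55 lie in the HIST1 cluster on chromosome 6, 12 in the HIST2 group on chromosome 1, 3 in the HIST3 cluster on chromosome 1 and 1, HIST4H4, on chromosome 12. The annotated gene models differ in how much of the mRNA they hold, which decides which reads can be counted. In 35 of the 71 genes the model ends with the stop codon, so these models hold coding bases alone, except for the longer ones of HIST1H3J and HIST1H2BA, which were not tested. In the other 36 it runs past the stop codon, and in 32 of these it holds a stem-loop, which starts 22 to 67 bases after the stop codon (median 36). In 21 of the 32 the model continues for over 300 bases beyond the stem-loop, and a gene's count cannot tell RNA that ends at the stem-loop from RNA that reads on. The stem-loops are shown because they are the processing signal of these mRNAs and differ between classes. Among the 32 there were 6 different sequences of the stem and loop, and 17 genes of H2A, H2B and H3 shared the same 1, here in HIST3H2A and HIST3H2BB. All 8 H4 genes with a stem-loop had another stem, as in HIST1H4H, and HIST1H2BC and HIST1H2AG carry further variants. Capitals mark the 16 bases of stem, loop and stem, read 5′ to 3′ on the strand of the gene from the GENCODE 29 transcripts (GRCh38).
HIST3H2A: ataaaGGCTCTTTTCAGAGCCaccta
HIST3H2BB: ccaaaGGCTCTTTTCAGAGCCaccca
HIST1H4H: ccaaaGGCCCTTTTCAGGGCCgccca
HIST1H2BC: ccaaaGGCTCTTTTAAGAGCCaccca
HIST1H2AG: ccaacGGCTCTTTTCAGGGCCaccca

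Library totals ran from 20944956 to 32549362 counts with vitamin C and from 16248869 to 41884588 in control. All 12 melanocytic markers chosen were tested, and they summed to 2470 to 2570 CPM with vitamin C and to 2618 to 2730 CPM in control. Of the 12, 6 rose, which were MLANA (log2 fold change 3.38), GPR143 (1.23), PMEL (0.73), RAB27A (0.51), PAX3 (0.34) and TYR (0.29), while DCT fell (-0.30). MLANA, an antigen of pigment cells, had 15.6, 15.9 and 14.6 CPM with vitamin C, against 1.22, 1.60 and 1.79 CPM in control. The regulators MITF and SOX10 were present in every library and were not called.

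The fibroblast, epithelial and blood markers summed to at most 115, 58.6 and 6.78 CPM in a vitamin C library and to at most 67.3, 67.4 and 10.02 CPM in a control library. Of 6 fibroblast markers tested 3 rose, which were LUM, an extracellular matrix protein that made up most of the sum (84.5 to 98.4 CPM with vitamin C and 48.9 to 55.2 CPM in control), COL3A1 (2.74 to 3.68 CPM and 1.68 to 1.98 CPM) and PDGFRB (2.28 to 2.62 CPM and 0.596 to 0.990 CPM). KRT18, among 3 epithelial markers tested, and LYZ, among 2 blood markers tested, fell, and HBA1 was at 0 in all libraries. Called were 58.3%, 50.0%, 33.3% and 50.0% of the melanocytic, fibroblast, epithelial and blood markers tested, against 11.2% of all genes tested. The part of these markers in the results was not tested.

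The total RNA of the replication-dependent histone genes hardly differed between the groups. Reads of the 71 genes made up 0.423%, 0.418% and 0.398% of all counts in vitamin C replicates 1, 2 and 3, against 0.406%, 0.400% and 0.392% in control replicates 1, 2 and 3. In CPM (counts scaled to the size of each library, here with TMM factors) they summed to 4121 ± 136 with vitamin C and 4018 ± 73.1 in control (SD, n = 3 each), a ratio of 1.03. The sums of the groups overlapped, as vitamin C replicate 3 (3978 CPM) fell among the controls (3942 to 4088 CPM). In bulk RNA, the share of cells in S phase and the histone RNA per such cell cannot be told apart.

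By class, the summed reads of H4 and H2A did not overlap between groups, and the differences were small. The 15 H4 genes summed to 413, 416 and 436 CPM with vitamin C, against 402, 356 and 381 CPM in control, 1.11-fold (log2 0.15). H2A summed to 1023, 1021 and 1115 CPM with vitamin C, against 1020, 995 and 981 CPM in control (log2 0.08), and here vitamin C replicate 3 was the highest library while the other vitamin C libraries lay just above control replicate 1.

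H2B summed to 1337, 1290 and 1246 CPM with vitamin C, against 1230, 1320 and 1254 CPM in control (log2 0.03). H1 summed to 1099, 1027 and 882 CPM with vitamin C, against 1046, 1014 and 990 CPM in control (log2 -0.02). H3 summed to 377, 383 and 299 CPM with vitamin C, against 390, 339 and 337 CPM in control (log2 -0.01). For H2B, H1 and H3 the groups overlapped, and for H1 and H3 vitamin C replicate 3 was the lowest of the 6 libraries. No p is given for the sums. Most of the reads came from H2B (31.4%), H2A (25.2%) and H1 (24.8%), while H3 and H4 made up 8.70% and 9.85%.

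**Figure D1:**
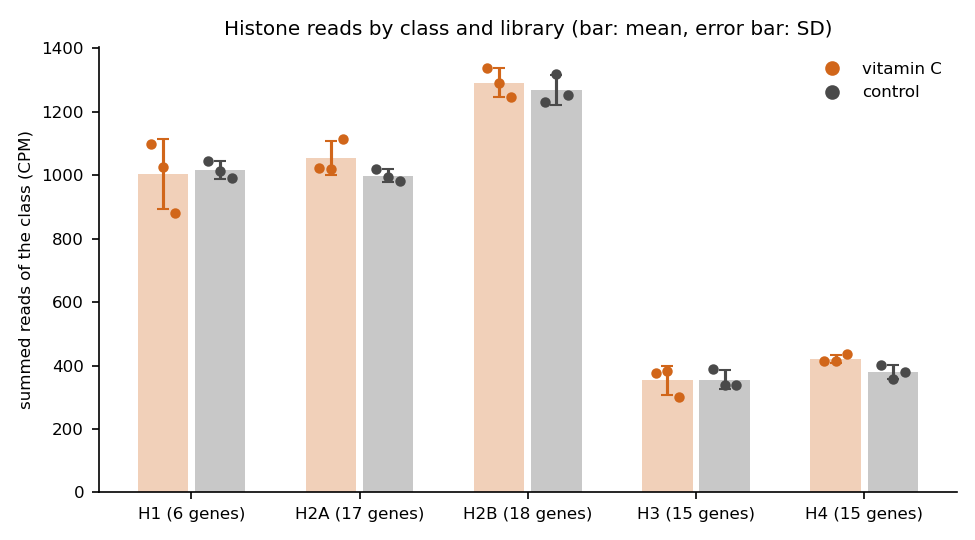
Summed reads of each histone class (vertical axis, CPM) in the 3 vitamin C libraries (orange, left) and the 3 control libraries (grey, right), as points with the mean as a bar and the SD as an error bar. The pairs of bars are of nearly the same height in each class, and H2A and H4 are the classes in which no vitamin C point lies within the control range.

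Between genes, levels are comparable only per length, and they are given here as CPM per kb of exon, averaged over the 6 libraries. Such a level is understated where the annotated model is much longer than the mRNA that is made. It may be overstated where the model ends with the stop codon, as fragments that reach past the model may still be counted. Of the genes named next, HIST1H1B, HIST2H2AC, HIST1H1C, HIST1H2AH, HIST1H2BK, HIST1H3B and HIST1H4D have such a model. The highest were the linker histone HIST1H1B (609), the H2A gene HIST2H2AC (586) and the linker histone HIST1H1C (525), followed by HIST1H2AH (401), the H2B genes HIST1H2BK (327) and HIST1H2BD (326), HIST1H1E (308) and the H3 gene HIST1H3B (299). In H4 the leading genes were HIST1H4C (221) and HIST1H4D (184). The lowest of those tested were HIST2H4A (0.236) and HIST2H2AA3 (0.925), whose sequences occur almost whole in a second gene.

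**Figure D2:**
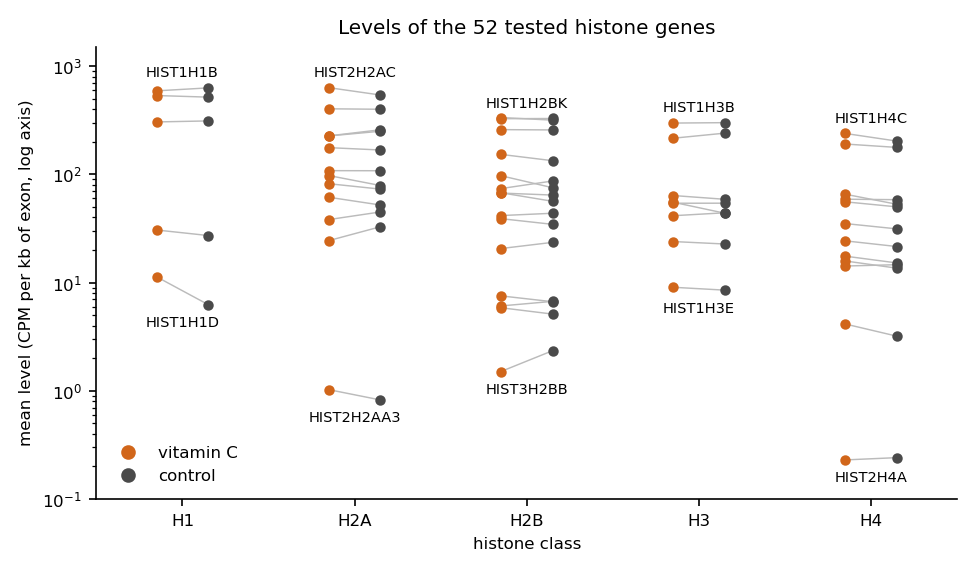
Mean level of each of the 52 tested histone genes (vertical axis, CPM per kb of exon, log axis) by class, with vitamin C (orange, left) joined to control (grey, right). Levels within a class span more than those between the groups, and the top and bottom gene of each class are named.

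Gene by gene, few replication-dependent histones passed the test. edgeR's filter on low counts kept 52 of the 71, and at a Benjamini-Hochberg adjusted p under 0.05 in its quasi-likelihood test 3 rose and 2 fell with vitamin C. These 5 of 52 are 9.62%, while 11.2% of all 16353 genes tested and 13.4% of the protein coding genes tested were called. Among all genes 6.09% were called higher and 5.09% lower. The median log2 fold change was 0.08 over the 52 histone genes and -0.0037 over all genes tested. Of the 52, 33 were above 0 (63.5%), against 49.1% of all genes tested. In 36 of the 52 the log2 fold change was within 0.2 of 0. The values of the 3 vitamin C and 3 control libraries did not overlap for 9 of the 52 (17.3%), against 30.6% of all genes tested and 34.4% of the protein coding genes tested. Besides the 5 called genes these were HIST1H2AC and HIST1H2AI, which lay higher with vitamin C, and HIST1H2AK and HIST1H2BN, which lay lower.

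The call count was sensitive to which vitamin C library was left out. Without vitamin C replicate 3, 8 genes were called higher and 2 lower, which is 19.2% of the 52, while 12.5% of all genes were called. The 5 genes were among these 10, and the others were HIST1H2AC, HIST1H2BJ, HIST1H3I, HIST1H4F and HIST1H4H. Without vitamin C replicate 1, 6 were called higher and 2 lower, 15.4% against 9.38% of all genes. Leaving out vitamin C replicate 2 gave 1 higher and 2 lower, 5.77% against 6.84%.

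**Figure D3:**
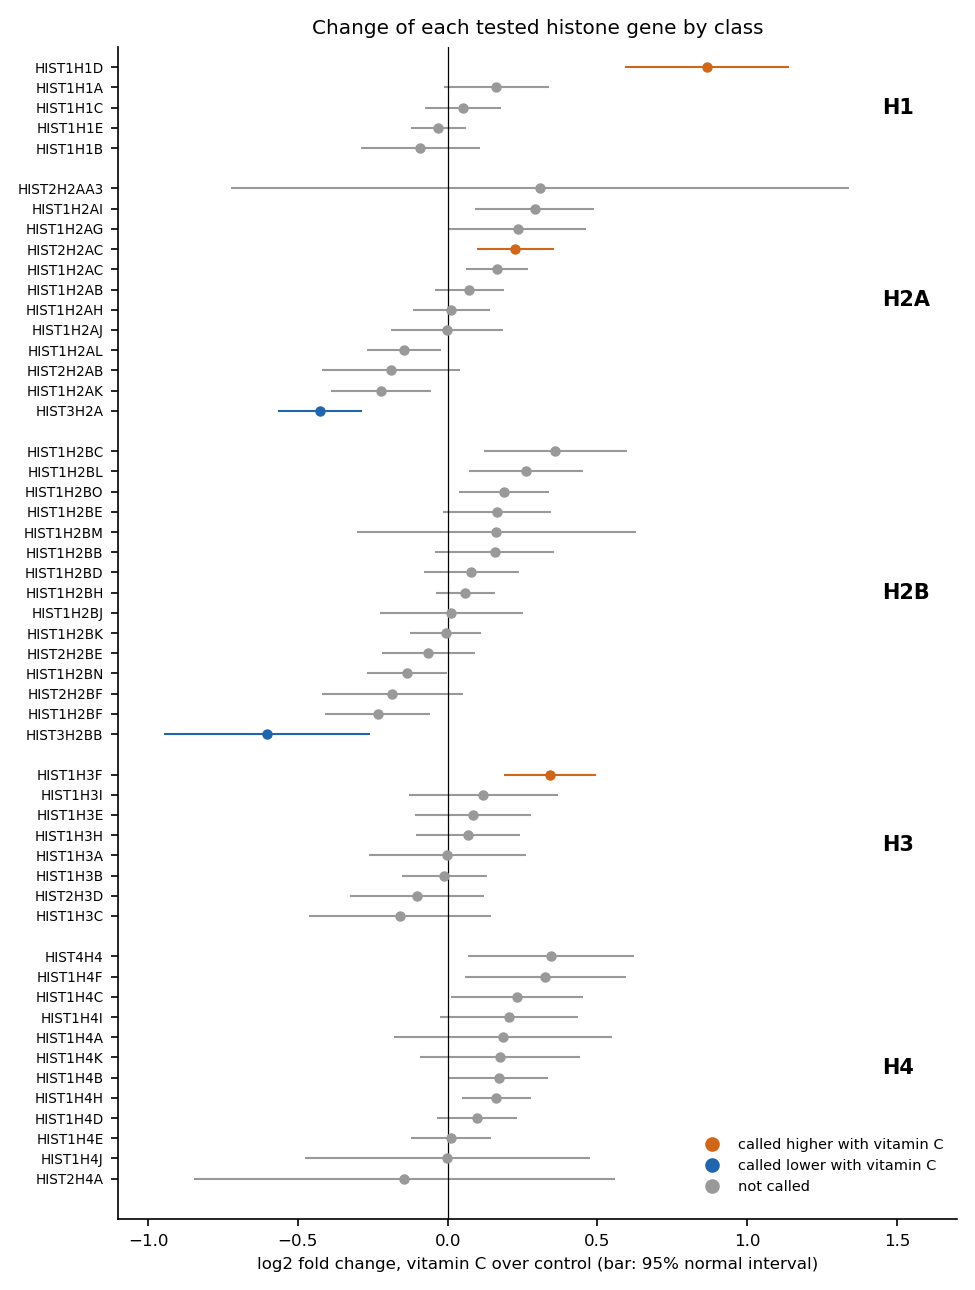
Log2 fold change, vitamin C over control, of the 52 tested histone genes (horizontal axis) with a nominal 95% normal interval from its standard error, by class and sorted within it. These intervals are narrower than the quasi-likelihood test implies, and they do not show which genes pass it. For HIST1H2AG the interval was wholly positive (0.0053 to 0.461), while the edgeR quasi-likelihood test gave an unadjusted p of 0.0655. Orange marks the 3 genes called higher, blue the 2 called lower and grey the 47 not called, and HIST1H1D stands farthest to the right at 0.87 and HIST3H2BB farthest to the left at -0.60.

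Among the linker histones HIST1H1D, which encodes a subtype of H1, rose. It had 8.65, 7.81 and 6.11 CPM in vitamin C replicates 1, 2 and 3, against 3.99, 4.36 and 4.15 CPM in control replicates 1, 2 and 3. Every vitamin C library lay above every control, with replicate 3 the nearest. The counts behind these values were 221, 257 and 128 with vitamin C, against 166, 117 and 67 in control. The log2 fold change was 0.87 (SE 0.14), a fold of 1.82, with an edgeR adjusted p of 0.00135, the largest change among the 52 genes. It was called in each of the 6 fits that left out a library, with log2 fold changes between 0.76 and 0.99.

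HIST1H1D was the least abundant of the 5 tested H1 genes, at 11.3 CPM per kb with vitamin C and 6.25 CPM per kb in control, so its change did not show in the summed H1 reads. The main H1 genes were not called. HIST1H1B had 462, 429 and 315 CPM with vitamin C and 453, 420 and 412 CPM in control, and vitamin C replicate 1 lay above and replicate 3 below every control (log2 fold change -0.09, edgeR adjusted p 0.630). HIST1H1C had 375, 350 and 304 CPM with vitamin C and 345, 326 and 324 CPM in control (log2 fold change 0.05, edgeR adjusted p 0.690). The groups overlapped in both. The other tested H1 genes, HIST1H1A and HIST1H1E, had log2 fold changes of 0.16 and -0.03.

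HIST1H1D lies on the minus strand at chromosome 6, 26234268 to 26234933 (GRCh38), as a single exon whose model holds the coding bases alone. The 250 bases before its RefSeq start, chr6:26234988-26235237 on the minus strand, are shown because H1 promoters carry a sequence of their own. Capitals mark, in this order, the H1 box AAACACA, the CCAAT box CCAAT and the TATA box TATAAA, searched on both strands, as found in the RefSeq sequence (GRCh38.p14).
HIST1H1D: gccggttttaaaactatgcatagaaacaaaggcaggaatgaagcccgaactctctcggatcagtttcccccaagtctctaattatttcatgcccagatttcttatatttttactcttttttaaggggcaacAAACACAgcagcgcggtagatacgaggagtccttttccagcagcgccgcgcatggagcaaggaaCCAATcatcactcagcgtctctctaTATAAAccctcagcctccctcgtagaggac

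Promoters of 61 of the 71 genes could be matched in RefSeq by current or older symbol, and motifs were looked for in the 250 bases before the start. The H1 box was in 6 of 6 H1 promoters and in none of the other 55 histone promoters, against 5.95% of all 27305 genes with a promoter. The TATA box was in 42 of 61 (68.9%), against 13.0% of all genes, and the CCAAT box in 51 of 61 (83.6%), against 37.0%. CCAAT was in every matched H1, H2A, H2B and H3 promoter and in 3 of 13 H4 promoters. The octamer ATTTGCAT, known as the binding sequence of OCT1 in H2B promoters, was in 9 of 13 H2B and 11 of 16 H2A promoters, which often share the same divergent stretch, against 2.03% of all genes. These shares describe the letters alone.

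In H2A, 12 of 17 genes were tested, 1 rose and 1 fell. The gene that fell, HIST3H2A, had 23.7, 21.5 and 20.3 CPM with vitamin C, against 29.6, 29.2 and 29.3 CPM in control. Control counts were 1233, 783 and 473, and the control libraries lay closer together than counting error usually puts them. All vitamin C libraries lay below the controls. The log2 fold change was -0.42 (SE 0.07), with an edgeR adjusted p of 0.00179. It was called in every fit that left out a library, with an adjusted p of at most 0.0150.

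In H2B, 15 of 18 genes were tested and the neighbour of HIST3H2A was the gene called. HIST3H2BB had 2.74, 4.13 and 3.82 CPM with vitamin C, against 4.90, 5.06 and 6.68 CPM in control. The groups did not overlap, but vitamin C replicate 1 and control replicate 3 each stood off from the others of their group. Its counts were 70, 136 and 80 with vitamin C, against 204, 136 and 108 in control. The log2 fold change was -0.60 (SE 0.18), with an edgeR adjusted p of 0.0417. The call was lost without any 1 of the 3 controls (adjusted p 0.0594, 0.0775 and 0.153) and without vitamin C replicate 1 (0.124), all in the same direction.

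HIST3H2A and HIST3H2BB are transcribed away from each other from starts 234 bases apart in GENCODE 29, at chromosome 1, 228456979 to 228457873 on the minus strand and 228458107 to 228460470 on the plus strand. They are the tested genes of the HIST3 cluster, and the other gene there, the testis-type HIST3H3, had 0 counts in each library. The bases between their RefSeq starts, chr1:228457874-228458102 on the plus strand (GRCh38.p14), are shown since they lie upstream of both genes that fell. Capitals mark CCAAT on either strand, and TATAAA, ATTTGCAT and AAACACA were not found in this window.
HIST3H2A to HIST3H2BB: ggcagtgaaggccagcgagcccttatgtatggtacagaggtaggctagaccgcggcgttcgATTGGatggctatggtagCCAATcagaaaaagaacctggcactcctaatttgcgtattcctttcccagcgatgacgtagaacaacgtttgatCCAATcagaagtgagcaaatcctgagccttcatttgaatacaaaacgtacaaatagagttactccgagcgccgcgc

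There are 11 such divergent pairs of an H2A and an H2B gene with starts at most 500 bases apart, and both partners were tested in 7. The partners had the same sign in 4 of the 7, and the median difference between the log2 fold changes of partners was 0.18. HIST1H2AI and HIST1H2BL were at 0.29 and 0.26, HIST1H2AC and HIST1H2BC at 0.16 and 0.36, none of them called (edgeR adjusted p 0.0833, 0.103, 0.0608 and 0.0759). HIST2H2AC and HIST2H2BE parted, at 0.23 and -0.06.

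The H2A gene that rose was HIST2H2AC, at chromosome 1, 149886975 to 149887364 on the plus strand, the most abundant H2A gene per length. It had 227, 237 and 275 CPM with vitamin C, against 209, 202 and 222 CPM in control. The groups did not overlap, although vitamin C replicate 1 lay close to control replicate 3 and vitamin C replicate 3 stood above the rest. The log2 fold change was 0.23 (SE 0.07), with an edgeR adjusted p of 0.0407. The call was lost without any 1 of the controls (adjusted p 0.119, 0.163 and 0.0635), without vitamin C replicate 2 (0.0627) and with upper quartile scaling (0.0629). Of its 100-base windows 17.2% occur in another gene, so its count is uncertain.

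The other leading H2A genes did not pass the test. HIST1H2AH, the second per length, had 147, 151 and 170 CPM with vitamin C and 150, 168 and 145 CPM in control (log2 fold change 0.01). HIST2H2AB, the third, had 106, 91.6 and 69.9 CPM with vitamin C and 115, 95.7 and 92.9 CPM in control (log2 fold change -0.19, edgeR adjusted p 0.342), again with vitamin C replicate 3 lowest. The log2 fold changes of the 10 H2A genes not called ran from -0.22 in HIST1H2AK to 0.31 in HIST2H2AA3, which had at most 1.00 CPM in any library.

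The leading H2B genes also showed no call. HIST1H2BK had 133, 127 and 113 CPM with vitamin C and 129, 126 and 120 CPM in control (log2 fold change -0.01). HIST1H2BD had 277, 265 and 333 CPM with vitamin C and 252, 303 and 273 CPM in control (0.08), and HIST1H2BJ had 291, 266 and 180 CPM with vitamin C and 233, 246 and 254 CPM in control (0.01). In HIST1H2BJ the vitamin C libraries surround the controls, and without vitamin C replicate 3 the gene was called higher. Log2 fold changes of the 14 H2B genes not called ran from -0.23 in HIST1H2BF to 0.36 in HIST1H2BC.

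In H3, 8 of 15 genes were tested and 1 rose. HIST1H3F, at chromosome 6, 26250195 to 26250605 on the minus strand, had 21.7, 23.5 and 23.0 CPM with vitamin C, against 18.5, 16.3 and 19.1 CPM in control. The 3 vitamin C libraries lay together and above all controls. The log2 fold change was 0.34 (SE 0.08), with an edgeR adjusted p of 0.0132, and the call was lost without control replicate 2 (0.0755) and without vitamin C replicate 2 (0.0633).

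HIST1H3F is 1 of several genes that encode the same H3 protein, and it was the fifth of the 8 per length. The gene with the highest level, HIST1H3B, had 122, 137 and 108 CPM with vitamin C and 129, 117 and 123 CPM in control (log2 fold change -0.01). HIST1H3C had 108, 96.6 and 61.0 CPM with vitamin C and 115, 96.2 and 84.7 CPM in control (-0.16), and HIST1H3I had 29.5, 29.7 and 19.3 CPM with vitamin C and 25.8, 23.8 and 22.9 CPM in control (0.12). In each of these, vitamin C replicate 3 was the lowest of the 6 libraries.

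**Figure D4:**
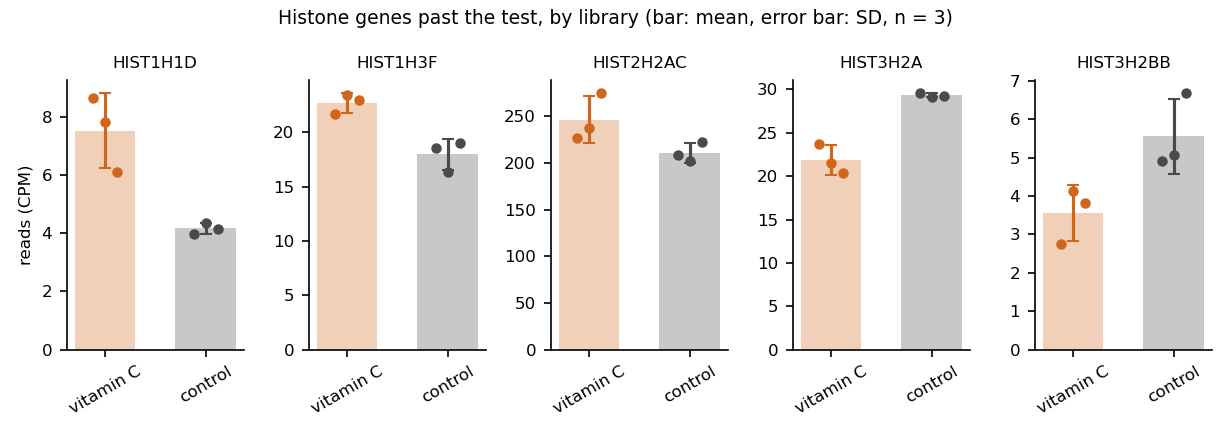
Reads of the 5 histone genes past the test (vertical axes, CPM, from 0 and separate for each gene) in the vitamin C libraries (orange, left) and control libraries (grey, right), with the mean as a bar and the SD as an error bar (n = 3). HIST1H1D had 7.52 ± 1.29 CPM with vitamin C and 4.16 ± 0.186 CPM in control, and in all 5 genes the points of the groups do not overlap.

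In H4, 12 of 15 genes were tested and edgeR called 0, with 3 at an unadjusted p under 0.05, and DESeq2 and limma-voom also called 0. Other edgeR fits did call H4 genes, all higher. They were HIST1H4F and HIST1H4H without vitamin C replicate 3, HIST1H4C and HIST1H4F with the replicate number as a block, and HIST1H4C, HIST1H4F and HIST4H4 without the filter on low counts. The log2 fold change was above 0 in 10 of the 12 (83.3%), against 49.1% of all genes tested, with a median of 0.17. These genes encode the same protein, so the class sum is the quantity nearest to the message for H4. The smallest p was that of HIST1H4H, with 79.3, 77.7 and 70.7 CPM with vitamin C and 71.1, 66.2 and 66.0 CPM in control (log2 fold change 0.16, SE 0.06, edgeR adjusted p 0.0970). Here vitamin C replicate 3 fell just below control replicate 1.

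The largest log2 fold change in H4 was 0.35 (SE 0.14), in HIST4H4, the gene on chromosome 12, with 9.47, 9.18 and 13.4 CPM with vitamin C and 8.31, 9.20 and 7.24 CPM in control (edgeR adjusted p 0.140). HIST1H4C, the leading gene per length, had 96.5, 89.9 and 125 CPM with vitamin C and 95.3, 74.1 and 95.4 CPM in control (0.23, edgeR adjusted p 0.219). HIST1H4D had 55.6, 61.6 and 61.1 CPM with vitamin C and 60.3, 54.6 and 51.1 CPM in control (0.10), and HIST1H4F had 21.3, 23.6 and 16.4 CPM with vitamin C and 13.9, 19.8 and 15.8 CPM in control (0.33, edgeR adjusted p 0.148). In all 4 the groups overlapped.

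Vitamin C replicate 3 stood apart from the other vitamin C libraries over all genes tested, and more strongly at the histone genes, in both directions. It was the highest of the 6 libraries at 18 and the lowest at 17 of the 52 genes, which is 67.3% together, while it was the highest or lowest at 49.7% of all genes tested. The other 5 libraries were each the highest or lowest at 26.4% to 36.0% of all genes tested. Its log2 level differed from the mean of vitamin C replicates 1 and 2 by over 0.3 at 44.2% of the 52 genes, against 17.5% of all genes. The SD of these differences was 0.38 over the histone genes and 0.26 over all genes. For each of the other 5 libraries, set against the others of its group, it was 0.18 to 0.25 over the histone genes and 0.19 to 0.21 over all genes.

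The genes low in vitamin C replicate 3 included HIST1H3C (log2 -0.74), HIST1H4J (-0.69), HIST1H2BJ (-0.63), HIST2H2BF (-0.61), HIST1H3I (-0.61) and HIST1H1B (-0.50). Those high included HIST1H2AG (0.56), HIST1H2BC (0.55), HIST1H4A (0.53), HIST4H4 (0.50) and HIST1H4C (0.42). Both sides thus hold H2B and H4 genes. The abundant non-coding RNA 7SK, which also lacks a poly(A) tail, was at 5904, 5712 and 9452 CPM in vitamin C replicates 1, 2 and 3, against 7523, 5814 and 6060 CPM in control. RN7SL2, a gene for the RNA of the signal recognition particle, was at 77.6, 122 and 267 CPM with vitamin C, against 27.7, 98.3 and 81.4 CPM in control. It was not called (edgeR adjusted p 0.0850). RN7SL1, another gene for this RNA, had 0 counts in every library, so the count of RN7SL2 may not give the level of the RNA. The part of 7SK and RN7SL2 in the histone values was not tested.

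**Figure D5:**
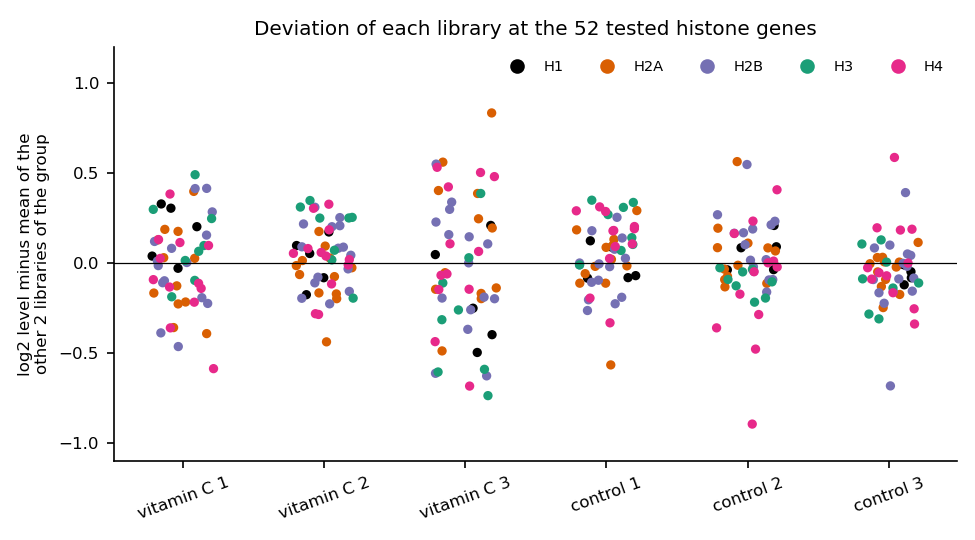
Log2 level of each library minus the mean of the other libraries of its group (vertical axis), with 1 point for each of the 52 tested histone genes, coloured by class. The points of vitamin C replicate 3 spread most, from -0.74 to 0.83.

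The 19 histone genes that did not pass the filter had at most 16 counts in any library, and 6 of them had none. In 8 of the 19 over 80% of the 100-base windows occur in another gene, as in the duplicated pairs of HIST2 (HIST2H2AA4, HIST2H3A, HIST2H3C, HIST2H4B). How reads that fit more than 1 gene were counted is unknown here. Those with over 40% of their exon inside another gene were HIST1H2AD, HIST1H2AM, HIST1H3D, HIST1H3J and HIST2H3PS2. The other 10 share neither in GENCODE 29. Of these, HIST1H1T, HIST1H2AA, HIST1H2BA and HIST3H3 are known from testis, and HIST1H2AE, HIST1H2BG, HIST1H2BI, HIST1H3G, HIST1H4G and HIST1H4L had at most 7 counts. Among the tested genes 12 have over 10% of their windows in another gene, with a median log2 fold change of -0.0012, and their values are uncertain.

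Split by gene model, the 25 tested genes that end with the stop codon had a median log2 fold change of 0.07 and held the 3 genes called higher. The 16 with over 300 bases after the stem-loop had a median of 0.04 and held the 2 called lower, the neighbours HIST3H2A and HIST3H2BB. The 8 with a stem-loop and a shorter end had a median of 0.23 and no call. Among all genes tested 6.09% were called higher and 5.09% lower, and so few calls cannot tell the models apart. Whether the RNA counted past the stem-loop differed between groups was not tested.

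Most histone genes outside the replication-dependent set encode variants that are not tied to S phase and have polyadenylated mRNAs, with exceptions such as H2AFX, which also makes a stem-loop mRNA. Of 10 tested, 2 rose and 8 were not called, with a median log2 fold change of 0.0019. H1F0, the linker histone of resting and differentiating cells, had 20.2, 20.4 and 23.7 CPM with vitamin C, against 16.4, 16.6 and 18.4 CPM in control (log2 fold change 0.33, edgeR adjusted p 0.0237). H3F3B, which encodes the replacement histone H3.3, had 398, 402 and 453 CPM with vitamin C, against 380, 349 and 351 CPM in control (0.21, 0.0267). Neither pair of groups overlapped, as at 30.6% of all genes tested. The calls were lost without control replicates 1 or 2 for H1F0 (adjusted p up to 0.101) and without control replicates 2 or 3 for H3F3B (up to 0.122). H3F3A, which encodes the same protein, was at -0.04 (adjusted p 0.733), and the variants H2AFY and H2AFJ were at -0.07 and 0.12, not called.

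For the processing and decay of histone mRNA, 29 genes were tested, of which 1 rose and 1 fell, with a median log2 fold change of -0.02. These calls are 6.90% of the 29, against 11.2% of all genes tested. SLBP had 103, 105 and 100 CPM with vitamin C, against 113, 108 and 121 CPM in control, a log2 fold change of -0.14 that did not pass the test (edgeR adjusted p 0.102), although the groups did not overlap. LSM11, a protein of the U7 snRNP, had 27.9, 27.8 and 28.6 CPM with vitamin C, against 25.9, 25.7 and 24.9 CPM in control (0.14, adjusted p 0.193). The gene that rose was TUT7, a terminal uridylyltransferase, at 92.6, 91.0 and 102 CPM with vitamin C, against 80.8, 83.9 and 79.6 CPM in control (0.22, 0.0205).

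PAN2 is a subunit of a deadenylase, which shortens poly(A) tails, and histone mRNAs as a rule lack these. It fell, at 16.01, 18.8 and 15.9 CPM with vitamin C, against 20.6, 20.9 and 21.8 CPM in control (-0.31, edgeR adjusted p 0.0276). The calls of TUT7 and PAN2 were each lost without any 1 control, with adjusted p up to 0.0847 and 0.101, and that of PAN2 also without vitamin C replicate 1 or 3. CSTF2 and LSM4 were at -0.17 and -0.15, not called (adjusted p 0.0953 and 0.0792).

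Among 16 genes of histone gene transcription 2 fell (12.5%, against 11.2% of all genes tested), with a median log2 fold change of -0.01. NPAT, the coactivator that cyclin E and CDK2 phosphorylate at histone clusters, had 118, 113 and 112 CPM with vitamin C and 113, 118 and 119 CPM in control, and the groups overlapped (log2 fold change -0.03, edgeR adjusted p 0.795). CCNE1, which encodes cyclin E, fell, at 40.2, 42.2 and 36.9 CPM with vitamin C, against 46.4, 47.9 and 46.6 CPM in control (-0.24, 0.0266). Its relative CCNE2 was at 0.10 (adjusted p 0.208).

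E2F3, a transcription factor of the G1/S transition, fell, at 72.4, 64.3 and 65.1 CPM with vitamin C, against 76.3, 85.2 and 79.8 CPM in control (-0.26, edgeR adjusted p 0.0177). NFYA, a subunit of the CCAAT binding factor, was at -0.13 (0.237). The calls were lost for CCNE1 without any 1 control or vitamin C replicate 1 (adjusted p up to 0.107) and for E2F3 without any of control replicates 2 and 3 and vitamin C replicate 2 (up to 0.0998).

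Some histone chaperones carry new histones to the replication fork, and the list used here is not limited to these. Of 26 tested, ASF1A rose and NASP fell (7.69%, against 11.2% of all genes tested), with a median of -0.02. ASF1A, a chaperone of H3 and H4, had 66.5, 62.4 and 69.4 CPM with vitamin C, against 56.7, 58.2 and 51.98 CPM in control (log2 fold change 0.24, edgeR adjusted p 0.0217). NASP, which keeps a soluble store of H3 and H4, had 285, 259 and 257 CPM with vitamin C, against 297, 296 and 322 CPM in control (-0.19, 0.0342). The call of ASF1A was lost without any of control replicates 1 and 3 and vitamin C replicate 1 (adjusted p up to 0.1005) and that of NASP without any 1 control or vitamin C replicate 2 (up to 0.174). NAP1L1 and MCM2 were at -0.18 and 0.15, not called.

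As histone RNA follows S phase, genes of the cell cycle are given beside it. Of 47 genes of G1/S and DNA replication, PRIM2 and GINS1 rose (log2 fold changes 0.24 and 0.19) and CCNE1 fell, with a median of -0.02. The share called was 6.38%, against 11.2% of all genes tested. MCM4, a subunit of the replicative helicase, was at -0.15, not called (edgeR adjusted p 0.0630). The calls of PRIM2 and GINS1 were lost without any 1 control, and also without vitamin C replicate 1 (PRIM2) or 2 (GINS1), with adjusted p up to 0.0953 and 0.133.

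Of 30 genes of G2/M, NEK2 rose and MKI67 fell (6.67%, against 11.2% of all genes tested), with a median of -0.03. MKI67, the proliferation marker Ki-67, had 401, 356 and 349 CPM with vitamin C, against 481, 513 and 495 CPM in control (log2 fold change -0.43, edgeR adjusted p 0.000217). NEK2, a kinase of the centrosome, had 97.0, 91.2 and 98.3 CPM with vitamin C, against 79.9, 78.4 and 80.3 CPM in control (0.26, 0.00421). Neither overlapped between groups, and both calls were kept without each library in turn. BUB1 and ANLN were at -0.20 and 0.13, not called (adjusted p 0.0533 and 0.0718).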

How the data were processed

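Paired-end RNA-seq of ribosome-depleted RNA from 6 wells was analyzed. The authors deposited raw counts for each gene, not normalized. The paper names STAR, HTSeq and GENCODE v19, while in the submitters' processing notes CASAVA 1.4, Trim Galore, STAR and hg38 appear. Whether strand was used, and how reads that fit several genes were treated, was not given in the sources used here. Histone genes are near-identical copies, so such reads bear on their values. Symbols, coordinates, exon lengths and stem-loops came from GENCODE 29 (57055 of 60675 identifiers matched), and promoters from RefSeq (GRCh38.p14). The 19 pseudogenes with such symbols were left out.

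Counts were fitted in R 4.3.3 with edgeR 4.0.16 (filterByExpr, TMM, quasi-likelihood test, vitamin C against control, no other term) over all 16353 genes kept, and p-values were adjusted by Benjamini-Hochberg over all of them. CPM uses TMM-scaled library sizes. Library totals were 16248869 to 41884588 counts. Averaged over genes, the variance between wells of a group was 2.75 to 11.1 times that of counting error alone (chi-square per degree of freedom). Counting error is thus part of the spread, and a larger part for genes of few counts. The steps were tested on simulated data. DESeq2 1.42.0 and limma-voom (limma 3.58.1), other scalings and filters, other thresholds, the replicate number as a block, members with exon overlap left out and each library left out were alternatives.

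Named histone genes are those called and, in each class, the 3 highest per kb, the smallest p and the largest change. In the lists of related genes they are those called, the 4 smallest p, SLBP, NPAT and LSM11. Genes named to complete a class or a protein, as markers, or in an account of overlaps, pairs, lost calls or vitamin C replicate 3 outside this rule were chosen after their values were seen. Members and lists were chosen with earlier results of these data known. The paper states that a lane held several samples, but which library ran in which lane was not given, so lane was not tested.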

Additional observations from a re-analysis of the deposited data

How the results depend on the processing

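Of 5 histone genes called, HIST1H1D and HIST3H2A were called under every alternative run at an adjusted p under 0.05, and at 0.01 only these 2 remained (1 higher, 1 lower). At 0.1 there were 9 (7 higher), 17.3% against 16.9% of all genes tested. Without a filter on low counts 65 histone genes were tested and 14 called (10 higher, 4 lower), 21.5% against 4.44% of all genes tested. That fit took in 44814 genes, against 16353 with the filter, and called 1989 of them, against 1829. Genes of few counts thus lower the share of all genes far more than that of the histones, and these shares are not alike. Same-numbered wells deviated together with r of 0.12, -0.02 and 0.09, and wells of unlike number with r of -0.18 to 0.11. These few values cannot decide whether the numbers pair the samples. With the replicate number as a block 8 histone genes were called (5 higher, 3 lower), 15.4% against 11.7% of all genes. Leaving out each library gave 3 to 10 calls, with 1 to 8 higher and 1 to 2 lower, which is 5.77% to 19.2% of those tested, while the share of all genes called was 5.71% to 12.5%. The 3 fits with 3 calls (5.77%) had 5.71% to 6.84% of all genes called. RLE, DESeq2, limma-voom, the stricter filter, the removal of small RNAs, scaling without histones and the removal of members with exon overlap gave 5 or 6 calls, library size alone 6 and upper quartile scaling 4. The log2 ratio of summed reads stayed between 0.11 and 0.19 for H4 and 0.04 and 0.14 for H2A. H1, H2B and H3 took both signs, at -0.09 to 0.07, -0.0001 to 0.06 and -0.07 to 0.10. Each moved by less than 1 SD of the log2 sums between wells, taken from the group with the larger SD. For H1 this SD was 0.16, from the vitamin C wells, and the control wells lay closer together.

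Genes near 0 changed sign when a library was left out, with log2 fold changes from -0.20 to 0.061 for HIST1H1B, -0.019 to 0.13 for HIST1H1C, -0.050 to 0.079 for HIST1H2AH, -0.021 to 0.15 for HIST1H2BD, -0.13 to 0.20 for HIST1H2BJ, -0.059 to 0.058 for HIST1H2BK, -0.10 to 0.075 for HIST1H3B and -0.32 to 0.042 for HIST1H3C. HIST1H2BJ was at -0.0006 with upper quartile scaling, -0.0031 with limma-voom and -0.011 with the replicate block. With library size alone HIST1H2BK was at 0.0043 and HIST1H3B at 0.0011, and HIST1H2BK was at 0.0006 without the filter. These settings made a call only for HIST1H2BJ without vitamin C replicate 3, and the cause of the sign changes was not tested.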

Other observations

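Of the 19 pseudogenes that carry replication-dependent histone symbols, HIST2H2BC had by far the most reads, with 219, 304 and 168 counts in vitamin C replicates 1, 2 and 3 and 288, 234 and 155 counts in control replicates 1, 2 and 3. None of the other 18 had over 14 counts in any library.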
